A study of Homo sapiens with 4 samples.

Results

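The glycolysis and hypoxia response genes examined here are 37 genes fixed by name: the enzymes that turn glucose into lactate, the regulators and transporters around them, genes that cells switch on when oxygen is low, and the alpha subunits of 2 hypoxia-inducible factors. They were taken as the rows of the deposited raw count table that carry those symbols, and all 37 were found among its 60617 genes. For the description they were split by role into 17 glycolytic enzymes, 6 glycolytic regulators and transporters, 12 hypoxia targets and 2 HIF alpha subunits.

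PolyA RNA was sequenced from SCC13 cells, an established line of cutaneous squamous cell carcinoma, labelled WT for genotype and grown in CnT-07 medium. The 2 control libraries came from cells infected with a lentivirus carrying a scrambled shRNA (shScr), and the 2 knockdown libraries from cells infected with one carrying an shRNA against CELF2 (shCELF2), an RNA-binding protein. Both groups therefore carry a lentiviral shRNA. The sources used here do not give the number of shRNA sequences, the time after infection, the cell density or the oxygen level. The labels do not say that the replicates were separate cultures, so the p-values rest on a spread between libraries that may be only technical.

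The libraries held 17649090 to 27898889 counts, and 3 counts corresponded to 0.108 to 0.17 CPM, the count scaled to a common library size. CELF2 itself had 1 count in the first control library and 0 in each of the others, so the labels could not be checked against the targeted gene. All 10 squamous keratinocyte markers examined were well counted, KRT5 at 5461 CPM or more in every library. All 10 had a positive log2 fold change (median 0.54). In 5 of them both knockdown libraries lay above both controls (50%, against 27.1% of all tested genes). At an unadjusted p below 0.05, 2 were higher (20%, against 12.1% of all tested genes). Of the 10, 0 passed the adjusted threshold (edgeR quasi-likelihood test), against 0.877% of all tested genes. Among keratins picked after their values were seen, control replicate 1 was the lowest library for KRT14 (2958 CPM against 4592 to 7535 CPM), KRT17 (1076 against 2397 to 3396 CPM) and KRT16 (81.4 against 302 to 545 CPM). It was also the lowest for KRT5, KRT6A, SFN and DSG3. Control replicate 2 was instead the lowest for TP63 (212 against 239 to 337 CPM), DSP (615 against 697 to 731 CPM) and PERP (456 against 488 to 704 CPM). The part of these markers in the results was not tested. Of 12 markers of fibroblasts, melanocytes, endothelial and immune cells, COL1A2, COL3A1, MLANA, TYR, PTPRC and CD3E had 0 counts in every library. The 12 together summed to 16.2 and 18.2 CPM in the controls and 42.5 and 25.2 CPM in the knockdown, mostly from COL1A1, and their part in the results was not tested. In bulk RNA, fewer cells of a kind and less RNA per cell cannot be told apart. Over all genes, 133 of 15170 tested passed the threshold of 0.05 (edgeR quasi-likelihood test, p adjusted after Benjamini and Hochberg), 92 higher and 41 lower in the knockdown. Leaving out 1 control at a time gave 0 (replicate 1 left out) or 616 (replicate 2 left out), and leaving out 1 knockdown library gave 365 (replicate 1) or 7 (replicate 2). With a correction for transcript GC content, 180 of 485 called genes were higher, 37.1% against 69.2%.

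Glycolysis splits glucose into pyruvate in the cytosol, and in many carcinomas and in dividing keratinocytes much of that pyruvate is turned into lactate even when oxygen is present. When oxygen is scarce, prolyl hydroxylases of the EGLN family stop marking HIF alpha proteins for destruction. The stabilized proteins pair with ARNT, bind DNA at hypoxia response elements and raise transcription of most glycolytic genes and of genes for blood vessel growth, acid-base balance, mitochondrial turnover and collagen modification. HIF alpha subunits are controlled mainly at the protein level, which RNA counts do not show.

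ACGTG, a form of the core of the hypoxia response element, was looked for on both strands in the RefSeq promoter windows (GRCh38.p14). Each window ran from 250 bases before to 50 after a transcription start. The element is what ties many of the genes to HIF. The other form, GCGTG, was not searched, so a window without a match may hold it. Below, the core means ACGTG. The search letters overlap the E-box CACGTG, which holds the core on both strands and is also bound by MYC and other factors. Windows were held for 34 of the 37 genes, and there was none for VEGFA, BNIP3L and NDRG1. Of their 61 windows 24 held the core (39.3%), against 7518 of 35116 windows of all genes (21.4%). By gene, 11 of 17 glycolytic enzymes, 4 of 6 regulators and transporters and 5 of 9 hypoxia targets had at least 1 window with it, and neither HIF alpha gene did. No such share by gene was taken over all genes, and genes differ in their number of windows. These counts by gene are therefore not set against the 21.4% of windows. The 20 genes with a match had a median log2 fold change of -0.08, and the 14 without one of -0.01. A match is a description of these letters and not a sign of binding.

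The stretches before the start that lie outside GENCODE v29 exons are shown for 6 genes that have the core there and that stand for the 3 roles: an entry enzyme, 3 later enzymes, the lactate exporter and a mitophagy receptor. Capitals mark the core on either strand, each sequence reads 5′ to 3′ on the gene's own strand, and the listed position is its place in GRCh38. The stretches of HK2, GAPDH, PGK1 and SLC16A3 lie inside the annotated gene, in an intron of a longer transcript, and those of LDHA and BNIP3 lie upstream of the annotated gene.
HK2, chr2:74834920-74835169, plus strand: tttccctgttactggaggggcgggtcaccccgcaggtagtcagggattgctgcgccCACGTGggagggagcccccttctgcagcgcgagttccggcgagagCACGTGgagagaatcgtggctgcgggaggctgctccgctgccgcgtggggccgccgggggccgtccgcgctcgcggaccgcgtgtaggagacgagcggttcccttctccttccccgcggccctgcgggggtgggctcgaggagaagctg
GAPDH, chr12:6535142-6535263, plus strand: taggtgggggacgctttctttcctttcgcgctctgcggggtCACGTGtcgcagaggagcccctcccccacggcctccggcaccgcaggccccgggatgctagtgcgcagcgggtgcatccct
PGK1, chrX:78103998-78104173, plus strand: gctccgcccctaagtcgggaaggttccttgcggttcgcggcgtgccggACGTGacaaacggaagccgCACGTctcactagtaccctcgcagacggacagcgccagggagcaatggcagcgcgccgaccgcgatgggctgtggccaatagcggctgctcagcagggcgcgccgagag
LDHA, chr11:18394313-18394387, plus strand: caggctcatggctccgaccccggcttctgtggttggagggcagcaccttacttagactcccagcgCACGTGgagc
SLC16A3, chr17:82228792-82229031, plus strand: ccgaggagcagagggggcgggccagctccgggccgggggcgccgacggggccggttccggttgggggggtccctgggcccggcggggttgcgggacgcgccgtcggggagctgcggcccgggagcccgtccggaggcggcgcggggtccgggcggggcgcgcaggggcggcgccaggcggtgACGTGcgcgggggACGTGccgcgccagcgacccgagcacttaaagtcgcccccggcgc
BNIP3, chr10:131982014-131982173, minus strand: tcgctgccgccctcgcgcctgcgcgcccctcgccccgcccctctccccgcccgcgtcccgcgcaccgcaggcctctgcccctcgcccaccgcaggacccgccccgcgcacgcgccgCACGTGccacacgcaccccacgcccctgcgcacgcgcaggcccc
In HK2 the 2 E-boxes began 194 and 149 bases before the start, in GAPDH the E-box began 81 bases before it, and in LDHA the shown one began 185 bases before it. SLC16A3 held 2 copies on the plus strand, 68 and 55 bases before the start, and PGK1 held 1 on each strand.

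Over all 37 genes, 0 passed the threshold in the comparison of knockdown with control (edgeR quasi-likelihood test, Benjamini-Hochberg adjustment over all tested genes), where 0.877% of all tested genes passed, 0.606% higher and 0.27% lower. All 37 passed the filter on low counts. At an unadjusted p below 0.05 there were 7 higher and 4 lower, which is 29.7% of the 37 against 22.1% of all tested genes (12.1% higher and 9.97% lower). In 13 genes both knockdown libraries lay above both controls and in 13 both lay below, 35.1% each, against 27.1% and 27.8% of all tested genes. In 16 of the 37 the gap between the replicates of a group was larger than the fitted difference between groups. No such count was taken over all genes, so it is not read as a result about the 37. How many of the 37 passed turned on the processing, as it did for all genes. DESeq2 called 5 (9.9% of all genes), limma-voom 0 (0%), a fit with no filter on low counts 7 (8.25%), DESeq2 size factors 1 (1.36%) and the GC correction 2 (3.2%). The fit with the replicate number as a block called 4 (10.4%), and with the GC correction added 11 (16.4%). Without control replicate 1 the count was 0 (0%), without control replicate 2 it was 1 (3.8%), and without knockdown replicate 1 or 2 it was 1 (2.29%) or 0 (0.0444%). The differences below are therefore given as values with their errors, and none of them is a called change in the fit of all 4 libraries with edgeR.

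The 17 glycolytic enzymes leaned lower in the knockdown: 12 had a negative log2 fold change and the median was -0.25, against -0.004 over all tested genes. Of the 17, 0 passed over all genes (edgeR quasi-likelihood test). At an unadjusted p below 0.05, 4 were lower (HK2, GAPDH, PFKM and LDHA) and 1 was higher (ALDOC), and DESeq2 called HK2 and GAPDH. The unadjusted count is 29.4% of the enzymes, against 22.1% of all tested genes (12.1% higher, 9.97% lower), and DESeq2 called 9.9% of all genes. In 11 enzymes both knockdown libraries lay below both controls (64.7%, against 27.8% of all tested genes), and in 4 above (23.5%, against 27.1%). In 2 the groups overlapped, as they did in 6839 of all 15170 tested genes. Together the 17 took 1.29% and 1.35% of all counts in the control libraries, against 1.03% and 1.1% in the knockdown libraries. GAPDH, ENO1, PKM and LDHA alone accounted for 0.977% and 1.06% in the controls, against 0.754% and 0.806% in the knockdown, so the share of the list is mostly theirs.

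**Figure D1:**
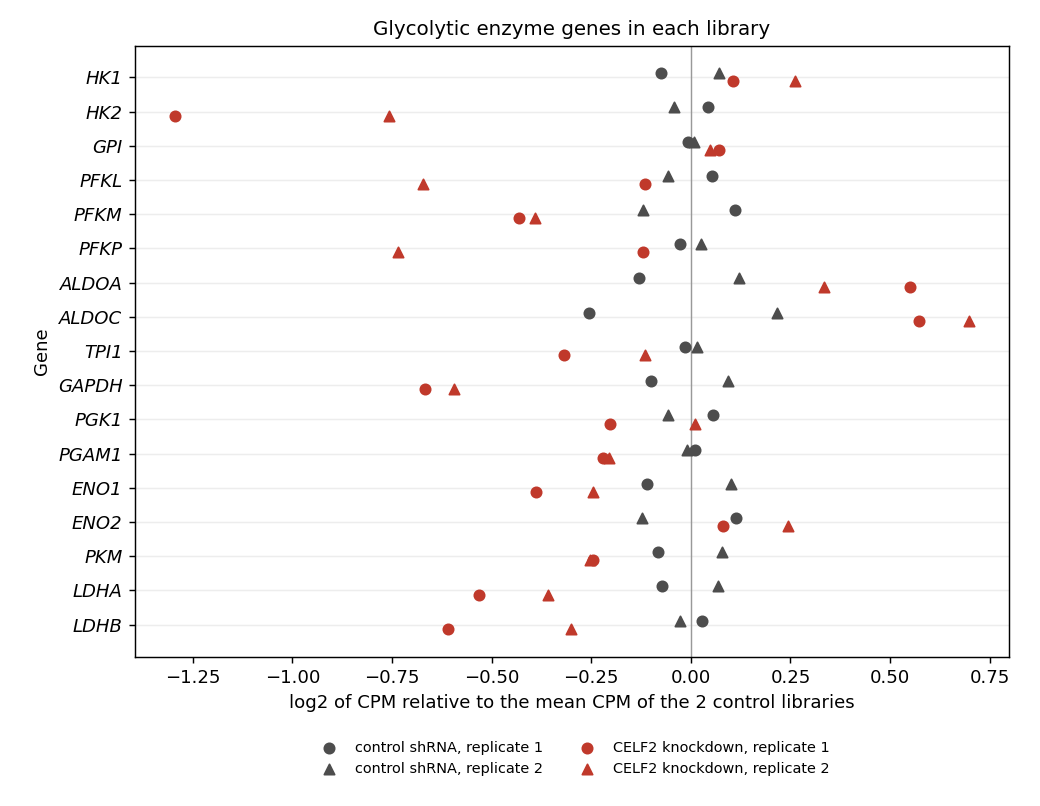
Each point is 1 library: the log2 of its CPM over the mean CPM of the 2 controls (x axis), for the 17 glycolytic enzymes in pathway order (y axis), with controls in grey, knockdown in red, circles for replicate 1 and triangles for replicate 2. HK2 and GAPDH lie to the left in both knockdown libraries and ALDOC to the right, while GPI stays near 0 and the groups of ENO2 overlap.

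Hexokinases trap glucose in the cell as glucose 6-phosphate, and the values of the 2 isoforms lay on opposite sides of the controls. HK2 (ENSG00000159399, GRCh38 chromosome 2, 74833981 to 74893359, plus strand, protein coding), the isoform that HIF and growth factors are known to induce, stood at 122 and 115 CPM in the controls and 48.3 and 70.1 CPM in the knockdown. Both knockdown libraries were below both controls, and the controls differed from each other by only 1.05-fold. The fitted log2 fold change was -1.0 ± 0.21 (SE), from a mean of 119 ± 4.37 to 59.2 ± 15.4 CPM (SD, n = 2 each), with adjusted p 0.062 (edgeR quasi-likelihood test). HK2 passed in 5 of 11 alternative processings, with adjusted p from 0.000121 to 0.24 and log2 fold changes from -1.30 to -0.75. HK1, the constitutive isoform, had 217 and 240 CPM in the controls and 246 and 274 CPM in the knockdown, a log2 fold change of 0.19. Per kilobase of exon, HK2 stood at 0.581 and 0.5 of the HK1 level in the controls, against at 0.204 and 0.266 in the knockdown. That ratio, which does not depend on scaling between libraries, was lower in both knockdown libraries.

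GPI, which converts glucose 6-phosphate to fructose 6-phosphate, hardly varied, with 309 and 312 CPM in the controls and 326 and 321 CPM in the knockdown. The 3 phosphofructokinase genes, whose product commits sugar to glycolysis, were all lower in both knockdown libraries, without passing. PFKM had 211 and 180 CPM in the controls and 145 and 149 CPM in the knockdown (fitted log2 fold change -0.42, adjusted p 0.2, edgeR quasi-likelihood test). PFKL had 163 and 151 CPM against 145 and 98.5 CPM, and PFKP 110 and 114 CPM against 103 and 67.3 CPM. In PFKL and PFKP the lower mean rested mostly on knockdown replicate 2: without it the log2 fold change of each was -0.12, against -0.37 and -0.40 with all 4 libraries. The ratio of PFKP to PFKL stayed between 1.25 and 1.39 in the 4 libraries. PFKM shares 628 exonic bases with SENP1 on the opposite strand, so its count is uncertain.

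Aldolases split fructose 1,6-bisphosphate, and here the annotation limits what can be said. ALDOA, usually the main aldolase outside liver and brain, had 161 to 264 counts per library, or 8.04 to 12.9 CPM. Per kilobase of exon that was a mean of 2.66 CPM, against 35.5 for ALDOC and 347 for TPI1. In GENCODE v29, 42.3% of its exonic bases also belong to AC093512.2 on the same strand, which itself received 20 to 43 counts. The sources used here do not say how shared reads were treated, so the ALDOA count is not read as its level. ALDOC had 68.2 and 94.5 CPM in the controls and 121 and 132 CPM in the knockdown, both knockdown libraries being higher (log2 fold change 0.64 ± 0.20, SE, adjusted p 0.125, edgeR quasi-likelihood test). Of the 17 enzymes it had the highest log2 fold change, and it was the lone one above 0.5.

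The enzymes below the aldolase step act on 3-carbon compounds, and the most highly counted of the 17 are among them. GAPDH (ENSG00000111640, chromosome 12, 6533927 to 6538374, plus strand), often used as a reference gene, had 4264 and 4869 CPM in the controls and 2876 and 3027 CPM in the knockdown. Every knockdown value was below every control value, and the log2 fold change was -0.63 ± 0.20 (SE; adjusted p 0.13, edgeR quasi-likelihood test; 0.0125 to 0.374 over 11 alternatives, 3 of which called it). Its 62 named pseudogenes in the table held at most 0.186% as many counts as GAPDH, so few reads were assigned to those copies. Per kilobase of exon GAPDH was the highest of the 37 genes, at 1261 CPM per kilobase averaged over the libraries, followed by ENO1 at 413, TPI1 at 347 and PKM at 231.

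TPI1, which interconverts the 3-carbon sugars, had 996 and 1017 CPM in the controls and 807 and 930 CPM in the knockdown. PGK1, the first step that yields ATP, overlapped between groups, with 533 and 493 CPM against 446 and 517 CPM. PGAM1, the mutase that follows, had 337 and 332 CPM against 287 and 290 CPM. ENO1 had 2240 and 2591 CPM against 1845 and 2039 CPM, and PKM, pyruvate kinase, 2035 and 2274 CPM against 1816 and 1807 CPM. Except for PGK1 these were lower in both knockdown libraries, with log2 fold changes from -0.31 to -0.21 and adjusted p above that of GAPDH. ENO2, the neuronal enolase that hypoxia can induce, had 18.7 and 15.9 CPM against 18.3 and 20.5 CPM. The ENO2 to ENO1 ratio per kilobase was 0.0103 and 0.00755 in the controls, against 0.0122 and 0.0124 in the knockdown, so ENO1 remained by far the more abundant.

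Lactate dehydrogenase closes the pathway, with LDHA favouring lactate formation and LDHB the reverse reaction. LDHA had 1211 and 1334 CPM in the controls and 880 and 993 CPM in the knockdown (fitted log2 fold change -0.44 ± 0.18, SE, adjusted p 0.214, edgeR quasi-likelihood test). LDHB had 35 and 33.7 CPM in the controls and 22.5 and 27.9 CPM in the knockdown (-0.45). Both genes were lower in both knockdown libraries, and their ratio per kilobase stayed between 16.6 and 19 in the 4 libraries, with the groups overlapping. In GENCODE v29, 33.4% of the exonic bases of LDHB are shared with AC010197.2 on the same strand, which had 0 counts in every library. How shared reads were treated is not known, so the LDHB count and its ratio to LDHA are uncertain.

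**Figure D2:**
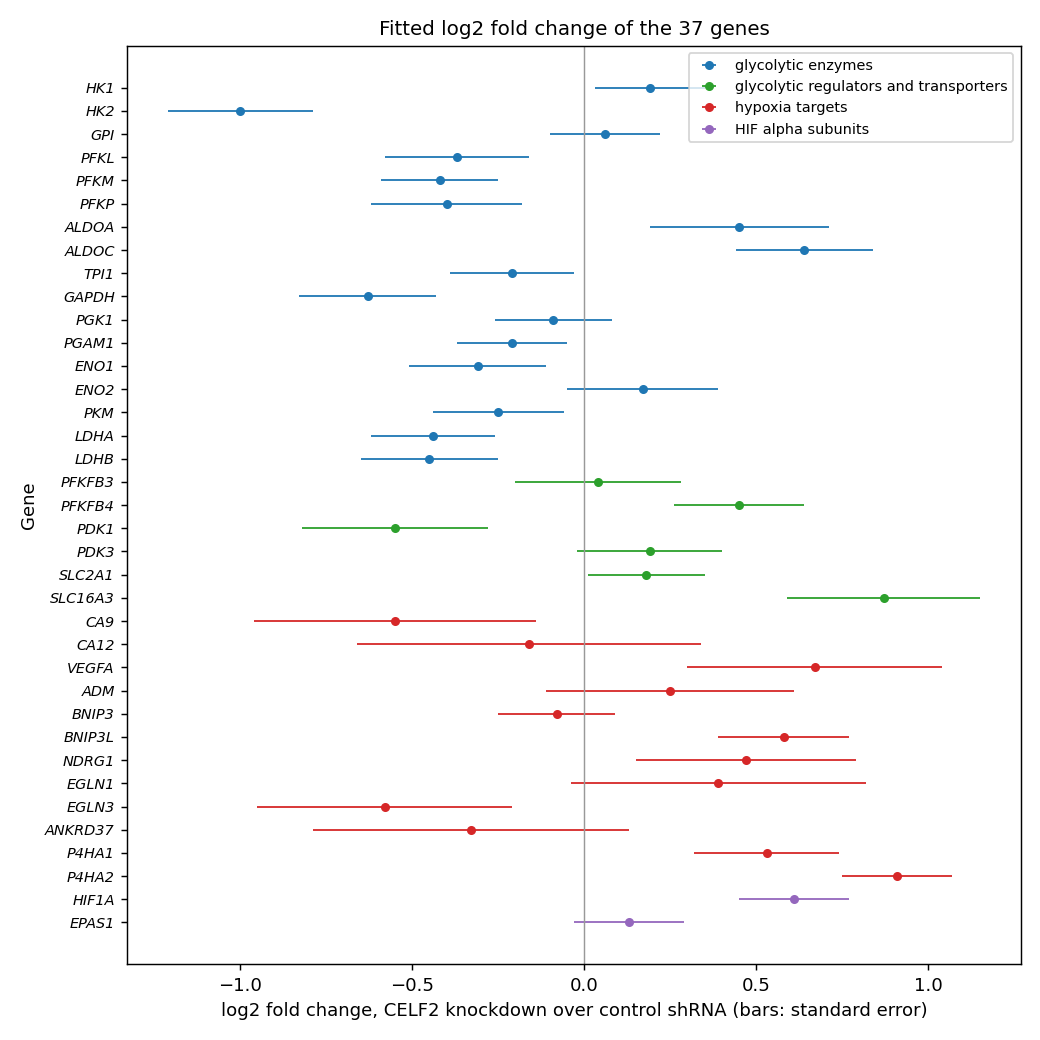
Fitted log2 fold changes of knockdown over control (points, x axis) with their standard errors (bars) for the 37 genes (y axis), coloured by role, from the edgeR fit of 2 libraries a group. HK2 at -1.0, P4HA2 at 0.91 and SLC16A3 at 0.87 lie farthest from 0, and 0 of the 37 passed the adjusted threshold.

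The 6 regulators and transporters leaned the other way, with 5 positive log2 fold changes and a median of 0.18. Of the 6, 0 passed over all genes (edgeR quasi-likelihood test), 2 were higher at an unadjusted p below 0.05 (SLC16A3 and PFKFB4), and DESeq2 called SLC16A3. All tested genes had shares of 12.1% higher and 9.97% lower at that unadjusted p, and of 9.9% called by DESeq2. In 3 of the 6 both knockdown libraries lay above both controls and in 1 below, against 27.1% and 27.8% of all tested genes. Without knockdown replicate 2 the median was 0.28.

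SLC16A3 (ENSG00000141526, chromosome 17, 82228397 to 82261129, plus strand), which encodes the monocarboxylate transporter MCT4 that exports lactate, had 73.2 and 112 CPM in the controls and 208 and 131 CPM in the knockdown. Both knockdown libraries were higher, but the replicates differed by 1.53-fold in the controls and by 1.59-fold in the knockdown. The log2 fold change was 0.87 ± 0.28 (SE; adjusted p 0.134, edgeR quasi-likelihood test; 0.000485 to 0.542 over 11 alternatives, 4 of which called it). It was 0.51 without knockdown replicate 1, which held the highest value, 0.59 without control replicate 1 and 0.57 after a GC correction. SLC16A3 shares 482 exonic bases with CSNK1D on the opposite strand, a gene with 3030 to 3942 counts, so its count is uncertain. SLC2A1, the glucose transporter GLUT1, had 134 and 135 CPM in the controls and 166 and 138 CPM in the knockdown, a log2 fold change of 0.18.

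PFKFB3 and PFKFB4 make fructose 2,6-bisphosphate, the activator of phosphofructokinase. PFKFB4 had 30 and 32.7 CPM in the controls and 47.4 and 38.4 CPM in the knockdown (fitted log2 fold change 0.45 ± 0.19, SE, adjusted p 0.222, edgeR quasi-likelihood test), while PFKFB3 overlapped, with 30 and 34.5 CPM against 26.6 and 39.5 CPM. PFKFB4 shares 289 exonic bases on the same strand with UCN2, which had 356 and 269 counts in the controls, against 539 and 275 in the knockdown, so its count is uncertain. PDK1 and PDK3 phosphorylate and inhibit pyruvate dehydrogenase in the mitochondrial matrix and so keep pyruvate from being turned into acetyl-CoA. PDK1, a classic HIF target, had 14.2 and 13 CPM in the controls and 10.7 and 7.88 CPM in the knockdown (-0.55 ± 0.27, SE, adjusted p 0.274), and PDK3 had 23.8 and 19.7 CPM against 26.3 and 23.3 CPM (0.19). The PDK3 to PDK1 ratio per kilobase was 5.03 and 4.56 in the controls, against 7.4 and 8.91 in the knockdown, higher in both knockdown libraries.

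The 12 hypoxia targets showed no common direction: 7 had a positive and 5 a negative log2 fold change, with a median of 0.32 and a range from -0.58 to 0.91. Of the 12, 0 passed over all genes (edgeR quasi-likelihood test), 3 were higher at an unadjusted p below 0.05 (P4HA2, BNIP3L and P4HA1), and DESeq2 called P4HA2, against 12.1% of all tested genes higher at that unadjusted p and 9.9% called by DESeq2. In 4 both knockdown libraries lay above both controls (33.3%, against 27.1% of all tested genes), and in 1 below (8.33%, against 27.8%). In 7 the groups overlapped, as they did in 6839 of all 15170 tested genes. In 8 of the 12 the replicate gap exceeded the group difference. No such count was taken over all genes, so it is not read as a result about this list. The median was 0.14 without control replicate 1 and 0.12 without knockdown replicate 1. The summed level of the list was 680 and 1025 CPM in the controls and 1093 and 1380 CPM in the knockdown, most of it VEGFA and NDRG1.

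**Figure D3:**
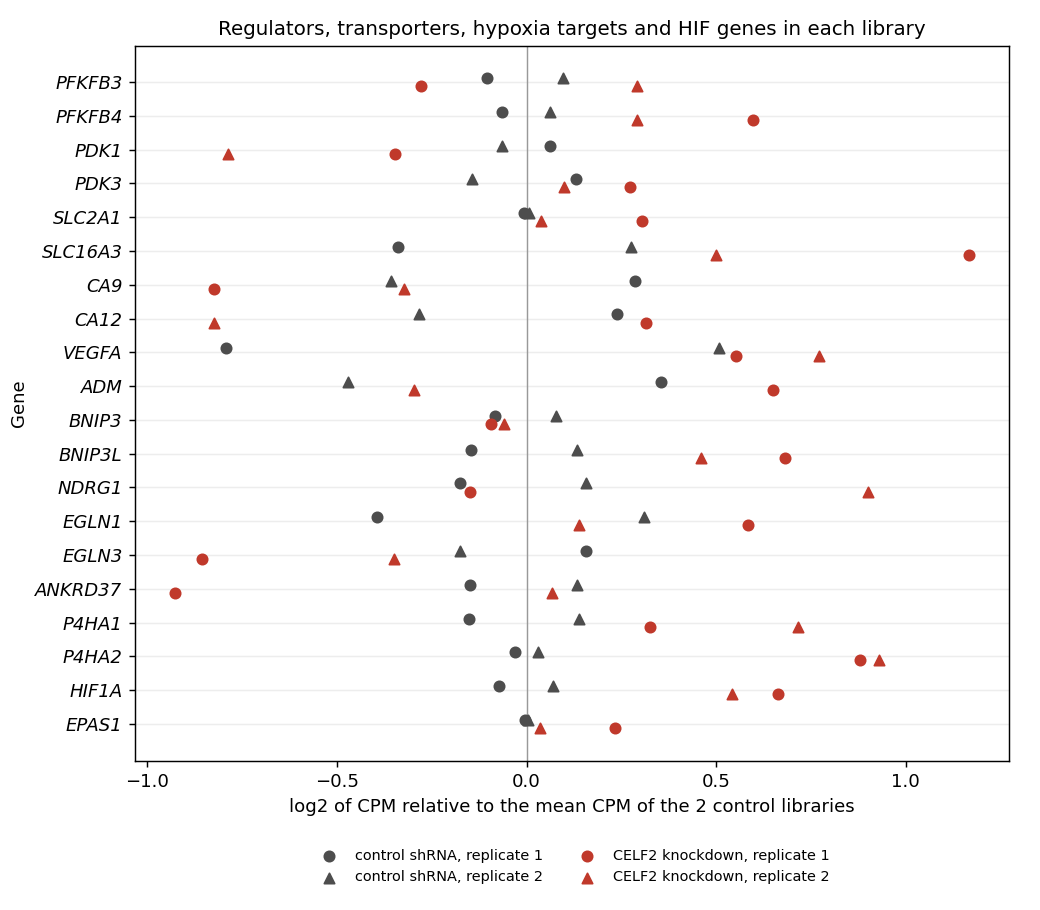
Each point is 1 library: the log2 of its CPM over the mean CPM of the 2 controls (x axis), for the regulators, transporters, hypoxia targets and HIF genes (y axis), with controls in grey, knockdown in red, circles for replicate 1 and triangles for replicate 2. P4HA2 and HIF1A show tight pairs of replicates set apart by group, whereas VEGFA, ADM, NDRG1 and CA12 spread as widely within a group as between groups.

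P4HA2 and P4HA1 are catalytic subunits of collagen prolyl 4-hydroxylases, which HIF induces. P4HA2 (ENSG00000072682, chromosome 5, 132191838 to 132295315, minus strand) had 45.7 and 47.6 CPM in the controls and 85.8 and 88.9 CPM in the knockdown. The replicates of each group lay within 1.04-fold of each other, and the groups did not overlap. The log2 fold change was 0.91 ± 0.16 (SE), a fitted fold of 1.87, from a mean of 46.6 ± 1.34 to 87.4 ± 2.21 CPM (SD, n = 2 each). At adjusted p 0.0525 (edgeR quasi-likelihood test) it missed the threshold and had the smallest p of the 37. It passed in 7 of 11 alternatives, with adjusted p from 0.000547 to 0.252, among them the fit without knockdown replicate 1 (0.0403), and its log2 fold change lay between 0.84 and 0.95 in all 11. P4HA1 had 42.3 and 51.7 CPM against 58.9 and 77.2 CPM (log2 fold change 0.53 ± 0.21, SE, adjusted p 0.188), also higher in both knockdown libraries. The P4HA2 to P4HA1 ratio per kilobase was 0.393 and 0.335 in the controls, against 0.53 and 0.419 in the knockdown. P4HA2 shares 548 exonic bases with P4HA2-AS1 on the opposite strand, which had 0 counts.

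BNIP3 and BNIP3L encode mitophagy receptors on the outer mitochondrial membrane. BNIP3L had 36.8 and 44.7 CPM in the controls and 65.4 and 56.1 CPM in the knockdown (fitted log2 fold change 0.58 ± 0.19, SE, adjusted p 0.139, edgeR quasi-likelihood test), while BNIP3 had 54.6 and 61.1 CPM against 54.2 and 55.5 CPM and overlapped. The BNIP3L to BNIP3 ratio per kilobase was 0.834 and 0.904 in the controls, against 1.49 and 1.25 in the knockdown, higher in both knockdown libraries. Which gene of the pair was the more abundant depends on the exon length used. BNIP3L shares 330 exonic bases with PNMA2 on the opposite strand, which had 0 to 27 counts.

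VEGFA, the main growth factor for blood vessels, had 203 and 500 CPM in the controls and 516 and 600 CPM in the knockdown. Control replicate 1, the lowest library also for KRT14, KRT16 and KRT17 but not for TP63, DSP and PERP, stood alone at the low end. It lay 2.47-fold below control replicate 2, and the 2 knockdown libraries were close to control replicate 2. With all 4 libraries the log2 fold change was 0.67 ± 0.37 (SE, adjusted p 0.342, edgeR quasi-likelihood test). Without control replicate 1 it was 0.15, and without control replicate 2 it was 1.48 and passed (adjusted p 0.0186; 0.00909 to 0.88 over 11 alternatives). ADM, which encodes the vasodilator adrenomedullin, followed the replicate number instead, with 69.6 and 85.5 CPM in replicate 1 of control and knockdown and 39.3 and 44.3 CPM in replicate 2. NDRG1, a stress-response gene of differentiating epithelia, had 211 and 266 CPM in the controls and 215 and 445 CPM in the knockdown. Its log2 fold change of 0.47 rested on knockdown replicate 2 and was -0.15 without it.

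The remaining hypoxia targets were thinly counted, at 30 to 142 counts per library, and in all but EGLN3 the groups overlapped. CA9 and CA12, carbonic anhydrases at the cell surface, overlapped between groups. CA9 had 4.36 and 2.79 CPM in the controls, against 2.02 and 2.86 CPM in the knockdown, and CA12 had 2.9 and 2.02 CPM against 3.06 and 1.39 CPM. EGLN3, an oxygen-sensing prolyl hydroxylase that HIF itself induces, had 5.08 and 4.04 CPM in the controls and 2.52 and 3.58 CPM in the knockdown (fitted log2 fold change -0.58 ± 0.37, SE). EGLN1, the main oxygen sensor in most cells, had 1.75 and 2.85 CPM against 3.45 and 2.53 CPM, and ANKRD37 had 2.54 and 3.09 CPM against 1.48 and 2.95 CPM. CA9 and ANKRD37 share 38.5% and 35.2% of their exonic bases with genes on the opposite strand (ARHGEF39 and UFSP2), and ARHGEF39 had 875, 303, 139 and 202 counts, so both are uncertain. EGLN1 shares no exonic bases with another gene in GENCODE v29, but the annotation used for counting is not known, so its low count is not read as its level, and its ratio to EGLN3 is uncertain too.

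Of the HIF alpha genes, HIF1A (ENSG00000100644, chromosome 14, 61695513 to 61748259, plus strand) had 126 and 139 CPM in the controls and 210 and 193 CPM in the knockdown. Both knockdown libraries were higher, and the replicates of each group lay within 1.1-fold of each other. The log2 fold change was 0.61 ± 0.16 (SE; adjusted p 0.0928, edgeR quasi-likelihood test; 0.00525 to 0.476 over 11 alternatives, 3 of which called it, DESeq2 among them). It stayed between 0.53 and 0.78 in the alternatives. EPAS1, which encodes HIF-2 alpha, had 139 and 140 CPM in the controls and 164 and 143 CPM in the knockdown (fitted log2 fold change 0.13 ± 0.16, SE, adjusted p 0.673). Per kilobase EPAS1 stood at 0.777 and 0.714 of HIF1A in the controls, against at 0.549 and 0.522 in the knockdown.

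Taking ratios within a library removes the scaling between libraries, and 12 pairs of related genes were compared in this way. Groups did not overlap in 6 of the 12. ENO2 to ENO1, PDK3 to PDK1, P4HA2 to P4HA1 and BNIP3L to BNIP3 were higher in both knockdown libraries, and HK2 to HK1 and EPAS1 to HIF1A were lower. Taken singly, 54.9% of all tested genes had groups that did not overlap, so the count is not read as a result about these pairs. The largest difference was that of HK2 to HK1, with a mean log2 ratio lower by 1.21 in the knockdown and gaps of 0.22 and 0.38 between replicates. In the other 6 pairs the groups overlapped, among them EGLN3 to EGLN1, where the replicates differed by 1.03 and 0.96 on the log2 scale. An exact permutation test of 2 libraries against 2 cannot go below 0.33, so the ratios are given as values and were not tested. The pair ALDOC to ALDOA is uncertain for the reason given for ALDOA, and the pair LDHA to LDHB for the reason given for LDHB.

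**Figure D4:**
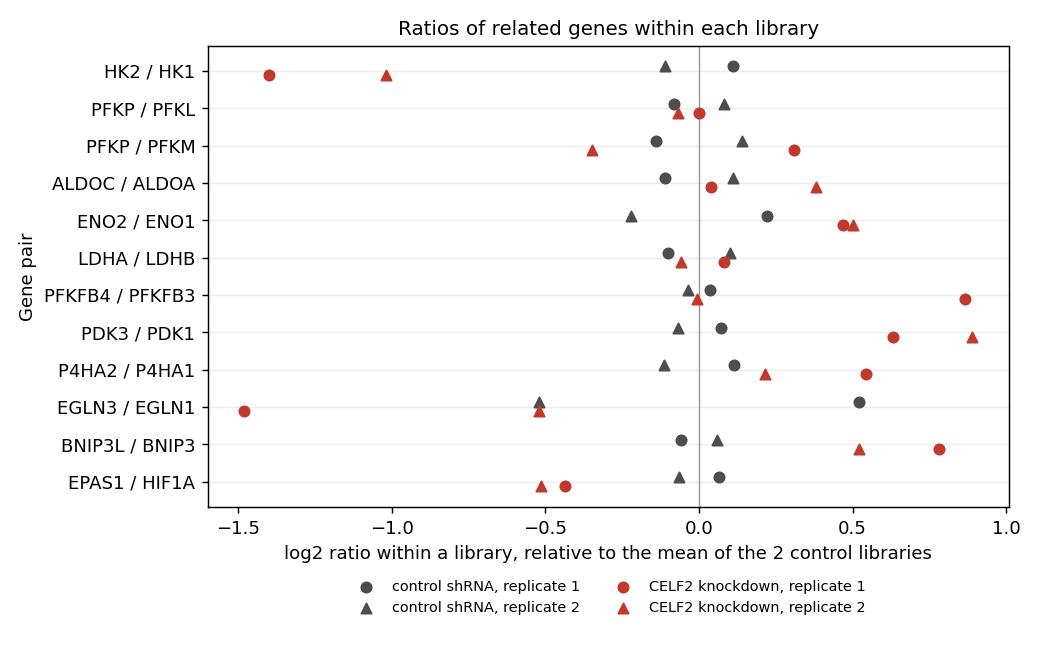
Log2 ratio of counts per kilobase of exon of 2 related genes within each library, relative to the mean of the 2 controls (x axis), for 12 pairs (y axis), with controls in grey, knockdown in red, circles for replicate 1 and triangles for replicate 2. HK2 to HK1 lies at least 1 log2 unit to the left in both knockdown libraries, and EPAS1 to HIF1A also lies left of both controls.

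Neighbouring pathways were described with lists of their genes. Of 33 further hypoxia-induced genes, 0 passed (edgeR quasi-likelihood test), 23 had a positive log2 fold change and the median was 0.26. At an unadjusted p below 0.05, 7 were higher (21.2%, against 12.1% of all tested genes) and 0 were lower (against 9.97%). In 14 both knockdown libraries lay above both controls (42.4%, against 27.1% of all tested genes). In 2 both lay below (6.06%, against 27.8%). Among those with the smallest p-values were CITED2, a HIF target that restrains HIF by competing for its coactivators (22.7 and 18.5 CPM against 33.4 and 41.3 CPM, log2 fold change 0.85) and TFRC, the transferrin receptor (70 and 69 CPM against 95.9 and 112 CPM, 0.58). In ANGPTL4 and DDIT4, also higher at that unadjusted p, the controls lay 1.02 and 0.86 log2 units apart, against fitted differences of 0.94 and 0.73. Control replicate 1 was the lowest library for both, as it was for VEGFA. The knockdown replicates of LOXL2 lay 0.99 apart, against 0.79. In CITED2, TFRC and SPAG4 the replicate gaps were smaller than the fitted difference. Among 12 tested genes of the 14 of HIF control, 0 passed, 0 reached an unadjusted p below 0.05 and the median was -0.03. HSP90AB1, a chaperone of HIF alpha, had 3406 and 3221 CPM against 2160 and 2748 CPM, CUL2, part of the VHL ubiquitin ligase, 68.8 and 61.1 CPM against 53.5 and 53 CPM, and HIF1AN, the asparaginyl hydroxylase of HIF alpha, 95.1 and 88.3 CPM against 99.4 and 117 CPM.

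Of 27 other genes of glycolysis or of its surroundings, 15 were tested and 0 passed (edgeR quasi-likelihood test). Of those tested, 12 had a positive log2 fold change and the median was 0.35. In 9 both knockdown libraries lay above both controls (60%, against 27.1% of all tested genes). In 3 both lay below (20%, against 27.8%). At an unadjusted p below 0.05, 4 were higher and 2 lower. That is 40% of those tested, against 22.1% of all tested genes (12.1% higher, 9.97% lower). Of the 9 genes higher in both knockdown libraries, PGAM2 and ENO3 encode enzymes of glycolytic steps. The others, PFKFB2, SLC16A1, PDK2, PDK4, PDP1, PDP2 and PGM1, catalyse no step of glycolysis itself. PGAM2 had 3 to 57 counts and shares all 857 of its exonic bases with DBNL on the opposite strand, so its count is uncertain. PDK4, a pyruvate dehydrogenase kinase of the fasting response, was near the floor, with 0.501 and 0.178 CPM in the controls and 1.97 and 1.22 CPM in the knockdown (fitted log2 fold change 2.13 ± 0.62, SE, adjusted p 0.107). ENO3, the muscle enolase, had 1.89 and 1.96 CPM against 5.72 and 4.84 CPM but shares exonic bases with PFN1 on the opposite strand, so its count is uncertain, and PGM2 had 75.6 and 53.2 CPM against 31.7 and 43.1 CPM. In the pentose phosphate pathway, which branches off glucose 6-phosphate, 0 of 7 tested genes passed and 0 reached an unadjusted p below 0.05 (median -0.09). TALDO1, transaldolase, had 149 and 146 CPM against 127 and 106 CPM, and RPE 94.4 and 79 CPM against 68.2 and 76.2 CPM. Of 23 genes of pyruvate dehydrogenase and the citric acid cycle, 0 passed, 2 were lower at an unadjusted p below 0.05 (CS and FH; 8.7% against 22.1% of all tested genes, 9.97% lower) and the median was -0.00. CS, citrate synthase, had 320 and 275 CPM against 196 and 219 CPM, FH, fumarase, 129 and 129 CPM against 88.5 and 100 CPM, and PC, pyruvate carboxylase, 17.9 and 17.5 CPM against 38.7 and 19.8 CPM. PC shares exonic bases with LRFN4 on the opposite strand, so its count is uncertain.

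The sign of the median log2 fold change of each of the 3 larger role groups was the same under the 11 alternatives run here, while its size was not. The median of the glycolytic enzymes lay between -0.41 and -0.19, that of the regulators and transporters between 0.12 and 0.28, and that of the hypoxia targets between 0.12 and 0.34. After the correction for transcript GC content the enzyme median was -0.41 and the hypoxia target median 0.17, with a shift of the median of all genes to -0.047. The enzyme transcripts ranged in GC content up to 64.1% (PFKL), and HIF1A, at 36.4%, had a log2 fold change of 0.78 under the GC correction with 0.61 before it, while PFKL went from -0.37 to -0.72.

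**Figure D5:**
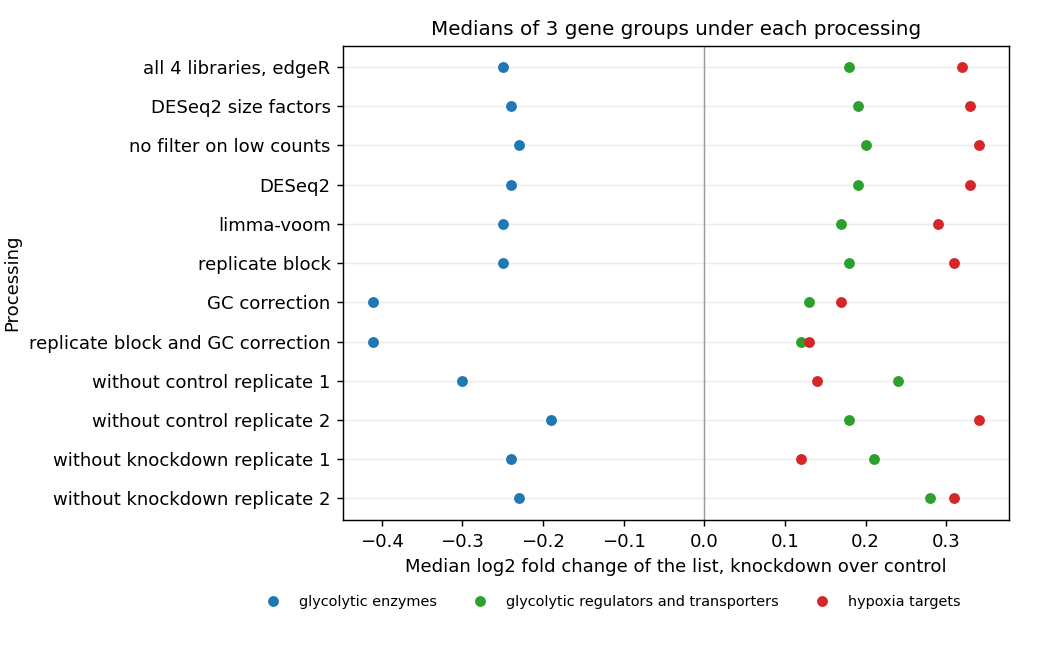
Median log2 fold change (x axis) of the 17 glycolytic enzymes, 6 regulators and transporters and 12 hypoxia targets under each processing (y axis), where the top line uses all 4 libraries with edgeR. The enzyme medians run from -0.41 to -0.19 and the other 2 groups stay above 0.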

How the data were processed

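PolyA RNA from 4 SCC13 libraries was sequenced from TruSeq preparations, per the labels' protocols. The deposited table holds raw counts by Ensembl gene ID (60617 genes), 1 column per library. HISAT2, edgeR and GRCh38 are named in the submitters' processing notes. The sources used here do not give the counting program, annotation release, strand setting or treatment of shared reads. Columns were matched to samples by the labels, and groups and replicate numbers came from the titles.

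Groups were compared with edgeR 4.0.16 in R 4.3.3 by its quasi-likelihood test, with TMM normalization, the filterByExpr filter (minimum count 10) and Benjamini-Hochberg adjustment over the 15170 tested genes at 0.05, checked on simulated data. Standard errors come from the fit, and CPM values are TMM-normalized. GENCODE v29 (GRCh38) gave positions, exonic lengths, overlaps and GC content, and held 58542 of the 60617 gene IDs. Replicates differed by a chi-square per degree of freedom of 38.2 for controls and 34.5 for knockdown, so they are distinct libraries.

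The members and lists were chosen with earlier results of these data known, and no list was tested as a set. Every member was named, with full statistics for the 3 smallest p-values of each role, and each neighbouring list by counts and its 3 smallest p-values. In 2 of those lists, 1 gene each chosen by that rule is not reported here. PGLS, HK2-DT and HIF1A-AS3 were matched by gene ID, and HIF1A-AS3 counts once with HIF1A-AS2. Alternatives were DESeq2 size factors, no filter, DESeq2 1.42.0, limma-voom (limma 3.58.1), a replicate block, a GC correction, both together, and each library left out.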

Additional observations from a re-analysis of the deposited data

How the results depend on the processing

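The number of genes past the threshold among all genes was 207 with DESeq2 size factors, 2139 with no filter on low counts, 1386 with DESeq2, 0 with limma-voom (its smallest adjusted p was 0.0558, and 3402 genes had an unadjusted p below 0.05), 485 with the GC correction, and 0 to 616 with 1 library left out. Against 0 with all libraries in edgeR, glycolytic enzymes past the threshold numbered 3 with no filter, 2 with DESeq2 and 1 with the GC correction, and hypoxia targets 1, 2, 1 and 1 with DESeq2 size factors, no filter, DESeq2 and the GC correction. Regulators and transporters numbered 1 and HIF alpha subunits 1 with no filter and with DESeq2. With 1 library left out, 0 to 1 hypoxia targets and 0 enzymes passed, and the lone library of a group is then assumed to vary like the other group. The fit with the replicate number as a block called 1579 genes, 2 enzymes, 1 hypoxia target and 1 transporter. With the block and the GC correction together it called 2492 genes, 5 enzymes, 4 hypoxia targets, 1 transporter and 1 HIF alpha subunit. Libraries of the same number deviated together with r = 0.203 across genes, which are not independent. The column names carry running numbers in which control and knockdown alternate by replicate. Nothing in the labels says that a replicate number marks a shared batch, so the pairing is not assumed. The enzyme median was -0.41 with the GC correction, alone and with the block, and -0.30 to -0.19 with 1 library left out. The hypoxia target median was 0.17 with the GC correction, 0.13 with block and GC correction, and 0.12 to 0.34 with 1 library left out. The regulator median was 0.12 with block and GC correction and 0.18 to 0.28 with 1 library left out. Signs turned with the GC correction for GPI (-0.069), PFKFB3 (-0.13) and ADM (-0.032), and with block and GC correction for GPI (-0.069), PFKFB3 (-0.17) and ADM (-0.0051). With 1 library left out, PFKFB3 (-0.067 without control replicate 1, -0.28 without knockdown replicate 2), CA12 (-0.82 to 0.30), ADM (-0.29 to 0.72, and -0.087 without control replicate 2), BNIP3 (-0.16 to 0.022), PGK1 (-0.21 to 0.022), ANKRD37 (-0.92 to 0.081) and NDRG1 (-0.15 to 0.91) took both signs. Of 550 gene values over the alternatives, 483 kept direction and side of the threshold and 51 newly passed. The cause of these differences was not tested. At 2 libraries a group, depth limits CA9, CA12, EGLN1, EGLN3 and ANKRD37, with at most 142 counts in a library.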
